A study of Rattus norvegicus with 53 samples.

Results

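The comparison described here is between 12 arrays on which blood mononuclear cells had been cultured with serum of day-40 rats: 6 with serum of DRlyp/lyp rats treated with IL-1RA, the antagonist of the interleukin-1 receptor, and 6 with serum of PBS-treated DRlyp/lyp rats. The arrays were taken by these titles from the 53 of the series and were compared in pairs that share a replicate number from 1 to 6. DRlyp/lyp rats are BioBreeding rats homozygous for the lyp allele, which makes them lymphopenic and prone to spontaneous type 1 diabetes, and serum donors of both groups carry it. The treated rats received human recombinant IL-1RA (anakinra) intraperitoneally at 350 ug/kg/day for 10 days from day 30, and their control littermates an equal volume of saline, called PBS in the titles. Serum was taken at day 40; animals with blood glucose above 250 mg/dl were kept out of pre-diabetic groups. The cells came from healthy Brown Norway (BN) rats about 180 days old and were cultured for 6 h. The labels do not say which serum donor or which cell donor stands behind a replicate number, so the p-values measure the spread between these samples, part of which may be technical. One field describes the first 6 sera as DRlyp/lyp serum to which IL-1RA was added, whereas the titles and the design text describe treated rats; the arrays do not settle which. For orientation, levels are also given for 6 arrays with the cell donors' own (autologous) BN serum, which fell in the same of 2 array clusters as all 12 day-40 arrays.

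Interleukin-1 beta is a cytokine that binds its receptor on leukocytes and, through MyD88, IRAK kinases and TRAF6, activates NF-kappaB and induces chemokines, prostaglandin synthesis and more IL-1. IL-1RA occupies the same receptor without signalling, so it blocks both IL-1 alpha and IL-1 beta. In the serum-induction assay, cells of a healthy donor act as reporters of whatever inflammatory factors a serum holds, and the study asked whether treating the rats with IL-1RA altered what their serum induced.

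With serum of IL-1RA-treated rats, Olfm1 and Rasd1 rose relative to serum of PBS-treated rats, and so did 1 probe set to which the annotation used here gives no gene name. The calls rest on the pairing and on nearly every pair: 0 probe sets passed without the replicate block or without pair 2, 3, 4 or 6, and neither gene passed with the 3′/5′ difference of actin in the fit (limma adjusted p = 0.266 for Olfm1 and 0.118 for Rasd1). These were all the calls among 31042 probe sets at adjusted p under 0.05 (limma with the replicate number as a block and Benjamini-Hochberg adjustment), so that 0.00966% of the probe sets were called higher and 0 lower. At an unadjusted p under 0.05 there were 3191 probe sets (10.3%), of which 1737 were higher and 1454 lower. No gene of the IL-1 family or of NF-kappaB signalling passed the test. In the fit with each gene represented by 1 probe set and p-values adjusted over 14217 genes alone, 9 genes (0.0633%) passed, which adds Maml2, Fam111a, Shoc2 and Cxcl2 on the higher side and Slc44a2, Tmbim1 and Reep6 on the lower side.

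**Figure D1:**
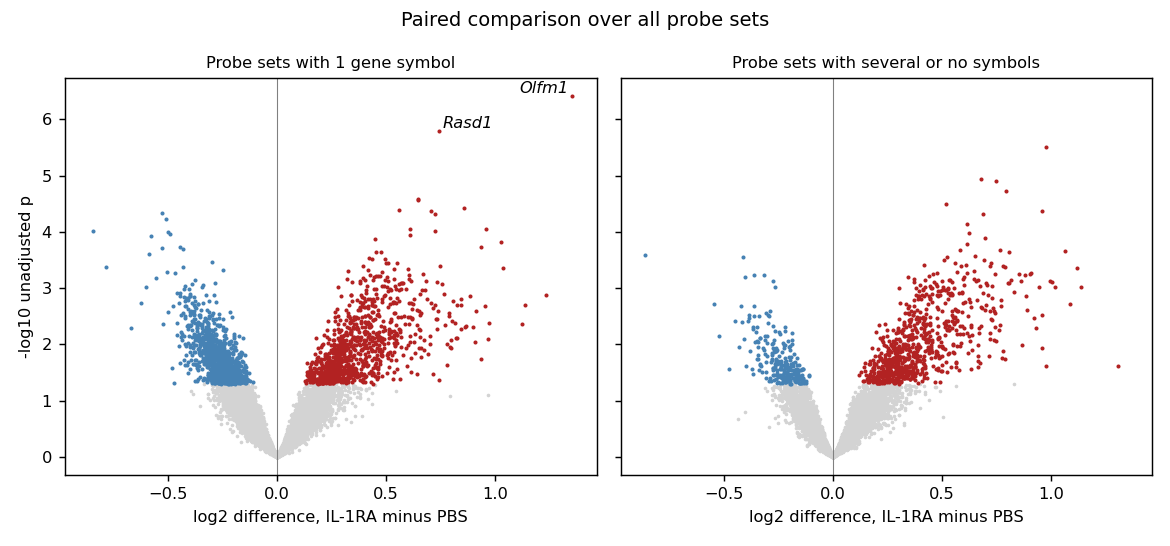
Each point is a probe set; the x axis is the log2 difference (IL-1RA minus PBS), the y axis is -log10 of the unadjusted p of the paired fit, and red (higher) and blue (lower) mark p under 0.05. Probe sets with 1 gene symbol (left panel) lie on both sides, whereas among those with several or no symbols (right panel) points past that p lie mostly on the higher side.

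Olfm1 encodes olfactomedin 1, a secreted glycoprotein best known from the nervous system, and Rasd1 encodes a Ras-like GTP-binding protein first described as induced by dexamethasone. Their promoters are shown because these are the genes with a name that passed the test, and the promoter of RT1-Ba, an MHC class II alpha chain gene, is shown because class II genes lay together on the lower side, as described further on. The sequences are RefSeq's for GRCr8, from 250 bases before to 50 bases after an annotated start site, written 5′ to 3′ on the gene's strand. They lie at chr3:31931086-31931385 on the plus strand (Olfm1), chr10:45267633-45267932 on the minus strand (Rasd1) and chr20:4576807-4577106 on the plus strand (RT1-Ba). The annotated genes span chr3:31918512-31956261 (Olfm1) and chr10:45265975-45275279 (Rasd1). The windows of Olfm1 and Rasd1 thus lie inside the gene, and any start site further upstream was not searched. Capitals mark matches, on either strand, to the core of the cAMP response element (TGACG) or to the Y box of class II promoters (ATTGG).
Olfm1: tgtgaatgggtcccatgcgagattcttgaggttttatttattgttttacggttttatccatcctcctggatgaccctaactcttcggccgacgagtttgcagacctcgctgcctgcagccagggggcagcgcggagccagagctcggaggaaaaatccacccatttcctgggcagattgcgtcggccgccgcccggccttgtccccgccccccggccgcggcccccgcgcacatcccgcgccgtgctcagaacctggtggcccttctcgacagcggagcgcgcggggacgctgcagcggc
Rasd1: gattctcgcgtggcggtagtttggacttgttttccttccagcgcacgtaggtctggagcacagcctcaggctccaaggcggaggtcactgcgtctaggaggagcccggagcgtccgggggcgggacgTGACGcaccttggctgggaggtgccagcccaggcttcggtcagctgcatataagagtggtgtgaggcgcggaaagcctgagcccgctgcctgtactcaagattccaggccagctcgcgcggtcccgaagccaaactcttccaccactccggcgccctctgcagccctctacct
RT1-Ba: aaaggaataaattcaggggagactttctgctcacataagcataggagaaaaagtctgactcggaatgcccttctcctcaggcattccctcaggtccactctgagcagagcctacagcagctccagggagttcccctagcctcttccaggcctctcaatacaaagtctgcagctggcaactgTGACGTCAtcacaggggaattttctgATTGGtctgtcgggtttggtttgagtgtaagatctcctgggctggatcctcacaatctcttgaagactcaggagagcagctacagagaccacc
The Rasd1 window held 1 TGACG, starting at base -123 from the start site. In RT1-Ba, matches on the 2 strands at bases -69 and -66 overlap in TGACGTCA, and ATTGG starts at base -43; such an X2-like element followed by a Y box is the textbook layout of class II promoters. The Olfm1 window held neither, and none of the 3 held AGAACA, the core of the glucocorticoid response element, which was also searched. Of 33469 rat promoter windows of this length, 21.2% held TGACG, 37.5% held ATTGG and 20.7% held AGAACA. These matches describe the letters only, and no binding was measured.

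Olfm1 had a lowest, median and highest log2 value of 7.04, 7.78 and 8.04 with serum of IL-1RA-treated rats, against 5.83, 6.10 and 7.06 with serum of PBS-treated rats. It was higher in 6 of 6 pairs, by 0.73 to 1.92, although the highest PBS value lay just above the lowest IL-1RA value. The mean difference was log2 1.36 (SE 0.145, 2.56-fold, limma adjusted p = 0.0121), with means of 7.65 ± 0.369 for IL-1RA and 6.30 ± 0.534 for PBS (SD, n = 6 each). With autologous serum its mean was 6.66 ± 0.455 (SD, n = 6), between those of the day-40 groups. A second Olfm1 probe set of lower signal differed in the same direction, at 4.91 ± 0.375 for IL-1RA against 4.35 ± 0.404 for PBS, by log2 0.56 (SE 0.0924, limma adjusted p = 0.0943).

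Rasd1 had a lowest, median and highest value of 7.71, 8.12 and 8.57 with serum of IL-1RA-treated rats, against 7.09, 7.37 and 7.65 with serum of PBS-treated rats. Its groups did not overlap, and the pair differences were the most even of the called genes, at 0.62 to 0.96. The mean difference was log2 0.74 (SE 0.0901, 1.67-fold, limma adjusted p = 0.0249), with means of 8.12 ± 0.311 for IL-1RA and 7.38 ± 0.228 for PBS (SD, n = 6 each). With autologous serum it averaged 8.05 ± 0.886 (SD, n = 6), with single arrays between 6.37 and 8.75, a wider spread than in either day-40 group.

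The third call, probe set 1397286_at, read 7.02, 7.05, 7.66, 7.93, 8.47 and 5.69 in replicates 1 to 6 with serum of IL-1RA-treated rats, against 6.45, 5.57, 7.04, 6.66, 7.44 and 4.81 with serum of PBS-treated rats. Replicate 6 was low in both groups and replicate 5 high in both, so that the groups overlap while each pair differs in the same direction. The mean difference was log2 0.98 (SE 0.126, limma adjusted p = 0.0315).

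**Figure D2:**
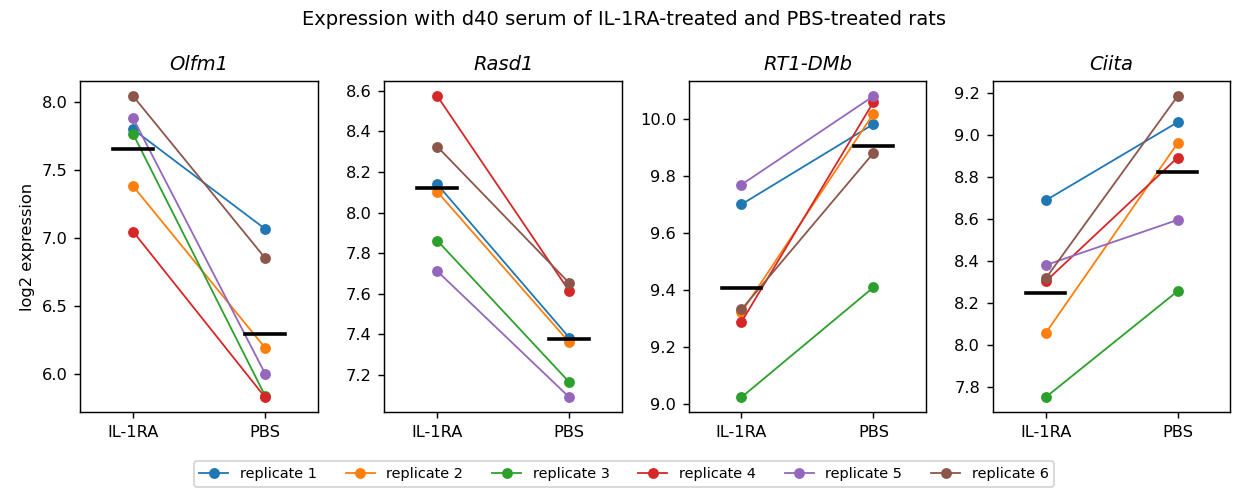
Log2 expression of 4 genes (y axis, a scale of its own in each panel) with serum of IL-1RA-treated rats (left) and PBS-treated rats (right); lines join arrays of the same replicate number and black bars are means (n = 6). In each of the 4 genes all 6 lines run the same way, downwards to PBS for Olfm1 and Rasd1 and upwards to PBS for RT1-DMb and Ciita, of which the last 2 did not pass the test.

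The pairing carried much of the spread. Differences between replicate numbers took up 72.7% of the variance of the 12 arrays, treatment 7.42% and the remainder 19.9%. These are shares of summed squares. The 6 replicate numbers have more degrees of freedom than treatment, so the shares of replicate number and treatment cannot be compared directly. Inflammatory genes show how far the replicate numbers lay apart. Il1b itself ranged from 7.31 to 11.61 with serum of IL-1RA-treated rats and from 7.64 to 11.49 with serum of PBS-treated rats, with the highest value of both groups in replicate 1. Within pairs it was lower in 5 of 6, by log2 -0.34 on average (SE 0.106, limma adjusted p = 0.274), and did not pass the test.

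Outside the calls, with 1 probe set per named gene, Maml2, Fam111a, Cxcl2, Shoc2 and Ccnd2 had the smallest p on the higher side. Probe sets of Vcan and Nr4a3 that did not represent their genes reached p as small (limma adjusted p = 0.0943 each) and are given further on. Maml2, a co-activator of Notch target transcription, averaged 8.05 ± 0.111 with serum of IL-1RA-treated rats against 7.40 ± 0.193 with serum of PBS-treated rats (SD, n = 6 each, as in all such pairs of means; log2 0.64, SE 0.102, limma adjusted p = 0.0943), without overlap between the groups. The other 3 Maml2 probe sets, of lower signal, differed by 0.10 to 0.14 with adjusted p of 0.655 to 0.754. Ccnd2, cyclin D2, averaged 7.52 ± 0.511 for IL-1RA against 6.58 ± 0.596 for PBS (log2 0.94, adjusted p = 0.174), with pair differences of 0.25 to 1.97. Shoc2, a scaffold of Ras to ERK signalling, averaged 8.00 ± 0.491 for IL-1RA against 7.28 ± 0.544 for PBS (log2 0.73, adjusted p = 0.133), and its second probe set differed by 0.14, higher in 3 of 6 pairs (adjusted p = 0.806). Fam111a, a protease that binds the replication clamp PCNA, averaged 4.40 ± 0.52 for IL-1RA against 3.68 ± 0.213 for PBS (log2 0.73, adjusted p = 0.0943). By the probe sets of highest signal, each of these 4 was higher in 6 of 6 pairs.

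Cxcl2, a neutrophil-attracting chemokine and classical target of IL-1, lay on the higher side with serum of IL-1RA-treated rats. It ran from 5.52 over a median of 6.91 to 10.11 with that serum, against 4.80, 6.29 and 9.16 with serum of PBS-treated rats. The groups overlap almost wholly, with replicate 1 the highest array of both, and 6 of 6 pairs were higher with serum of IL-1RA-treated rats, by 0.15 to 0.95 (mean log2 0.61, SE 0.11, limma adjusted p = 0.133). Autologous serum gave 5.31, 7.11 and 9.92. Also on this side without passing were Slc40a1, the iron exporter ferroportin (log2 0.46), Adgre1, which encodes an adhesion receptor of macrophages (0.55), Snap23, a membrane fusion protein (0.39), and Ppl, Eaf2, Grhl1, Dock4 and Sh3bgrl1 (0.43 to 0.75), with adjusted p of 0.175 to 0.177.

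On the lower side no gene passed over all probe sets. Slc44a2, a choline transporter-like protein, averaged 10.54 ± 0.47 with serum of IL-1RA-treated rats and 11.07 ± 0.365 with serum of PBS-treated rats (log2 -0.53, SE 0.0885, limma adjusted p = 0.0943). Tmbim1, a lysosomal membrane protein, averaged 9.07 ± 0.185 for IL-1RA and 9.58 ± 0.327 for PBS (log2 -0.51, adjusted p = 0.106). Reep6, which shapes the endoplasmic reticulum, averaged 5.09 ± 0.429 for IL-1RA and 5.94 ± 0.571 for PBS (log2 -0.85, adjusted p = 0.133), and its second probe set, of lower signal, differed by -0.10 (adjusted p = 0.711). The list of 15 with the smallest p on this side also held lymphocyte surface genes, namely Fcmr, the Fc receptor for IgM (log2 -0.44), Ly6e (-0.53) and the tetraspanin gene Cd37 (-0.47). The rest were Lin37, Limd2, Ptp4a3, Grn, Sbf1 and Clcn1 (-0.59 to -0.37) and the 3 class II genes described next. Other probe sets of Ly6e (-0.08) and Sbf1 (-0.11 to -0.05), of lower signal, had adjusted p of 0.792 to 0.935. By the probe sets of highest signal, all 15 were lower in 6 of 6 pairs, a pattern that 4.1% of all genes showed, against 1.91% that were higher in 6 of 6. The leading genes of either side were chosen by their p in these same pairs, so their agreement over the pairs is no separate evidence.

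**Figure D3:**
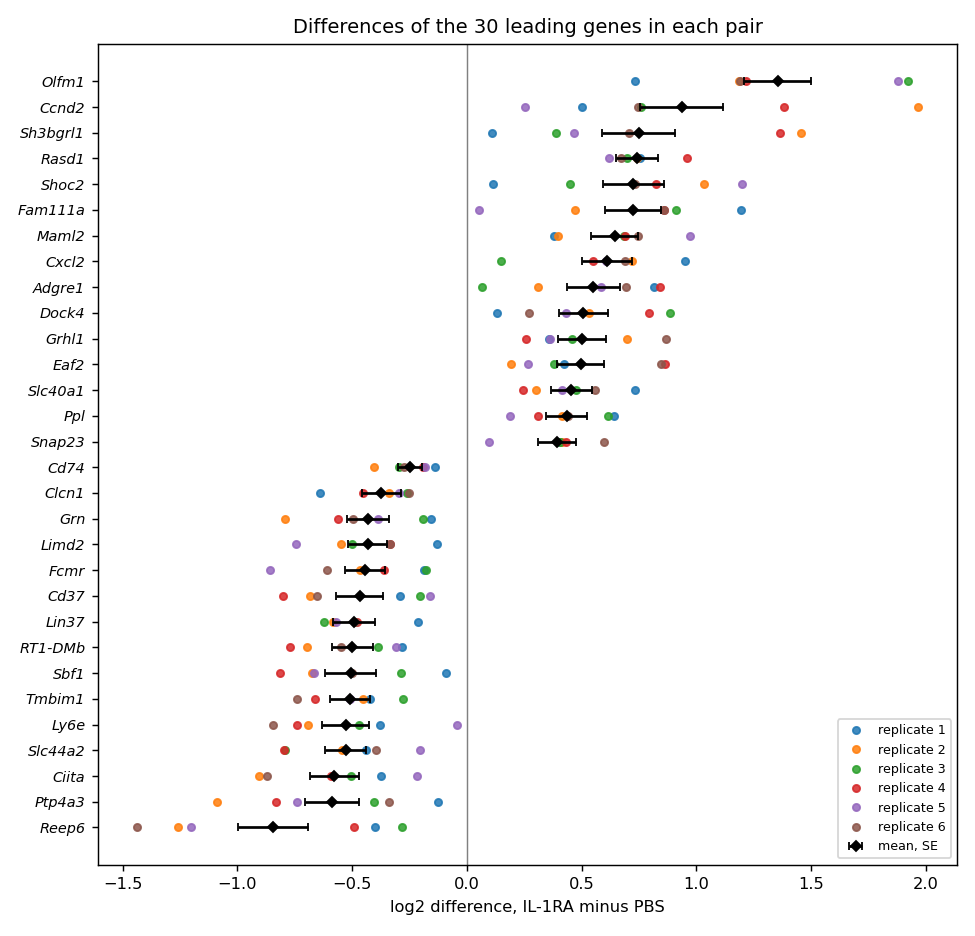
Log2 difference, IL-1RA minus PBS, in each of the 6 pairs (coloured points) and as mean with SE (black diamonds) for the 15 named genes with the smallest p in each direction, with 1 probe set per gene. Only Olfm1 and Rasd1 passed the test; the points of Olfm1 run from 0.73 to 1.92 and those of Rasd1 from 0.62 to 0.96.

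MHC class II molecules present peptides to CD4 T cells, and their genes are switched on together by the co-activator CIITA, bound to the RFX and NF-Y proteins on the X and Y boxes. Of 15 measured genes of this list, 8 were lower at an unadjusted p under 0.05 with serum of IL-1RA-treated rats and 0 higher, beside 6.68% lower and 3.28% higher among all genes; 0 passed the test over all probe sets. The list's median difference was log2 -0.19, against -0.03 over all genes, and its median within a pair was negative in 6 of 6 pairs (-0.31 to -0.03). The median over all genes was also negative in 6 of 6 pairs, at -0.08 to -0.01. Ciita ran from 7.75 over 8.31 to 8.69 with serum of IL-1RA-treated rats, against 8.26, 8.93 and 9.19 with serum of PBS-treated rats. Every pair was lower, by 0.22 to 0.91 in size, with a mean of log2 -0.58 (SE 0.107, limma adjusted p = 0.136), and the groups overlap. A second Ciita probe set of lower signal differed by 0.03 (adjusted p = 0.971).

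RT1-DMb, the beta chain of the DM molecule that loads peptides onto class II, ran from 9.02 over 9.33 to 9.77 with serum of IL-1RA-treated rats, against 9.41, 10.00 and 10.08 with serum of PBS-treated rats (log2 -0.50, SE 0.0908, limma adjusted p = 0.133). Its partner RT1-DMa averaged 8.51 ± 0.186 for IL-1RA against 8.92 ± 0.314 for PBS (log2 -0.41, adjusted p = 0.186). Cd74, the invariant chain and among the brightest genes of the list, averaged 13.04 ± 0.163 for IL-1RA against 13.29 ± 0.216 for PBS (log2 -0.25, adjusted p = 0.177). The antigen-presenting chains RT1-Ba (-0.19), RT1-Bb (-0.37), RT1-Da (-0.23) and RT1-Db1 (-0.31) were each lower in 5 of 6 pairs, with adjusted p of 0.194 to 0.34. The promoter-binding factors Rfx5 (-0.06) and Rfxap (-0.10), the protease gene Ctss (-0.01) and the co-stimulatory genes Cd80 (0.04) and Cd86 (0.05) had adjusted p of 0.773 to 0.99. Means with autologous serum were 8.05 ± 0.414 for Ciita, 9.35 ± 0.211 for RT1-DMb and 13.07 ± 0.169 for Cd74 (SD, n = 6).

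Class II genes are expressed by B cells and monocytes, and markers of lymphocytes lay on the same side. In a bulk sample, fewer cells of a type and less RNA per cell cannot be told apart. The shares among all genes at an unadjusted p under 0.05 were 6.68% lower and 3.28% higher. Of 11 B cell genes 3 were lower at an unadjusted p under 0.05 (Pou2af1 -0.29, Cd79b -0.42, Fcer2 -0.33; list median -0.19), of 20 T cell genes 4 (Cd7 -0.40, Lck -0.29, Cd3e -0.23, Zap70 -0.20; median -0.14, and -0.08 without pair 5) and of 17 natural killer and cytotoxic genes 3 (Xcl1, Cst7, Klrc1; median -0.17), with 0 higher in each list and 0 passing the test. The mean over 7 defining T cell markers was 9.18 to 9.59 with serum of IL-1RA-treated rats and 9.30 to 9.80 with serum of PBS-treated rats, lower in 6 of 6 pairs. That over 5 natural killer and cytotoxic markers was 6.86 to 7.39 for IL-1RA and 7.05 to 7.54 for PBS, also lower in 6 of 6 pairs. The mean over the 2 measured B cell markers was 7.96 to 9.24 for IL-1RA and 8.74 to 9.73 for PBS, lower in 5 of 6 pairs. Monocyte markers gave 6.11 to 7.60 for IL-1RA and 6.32 to 7.25 for PBS, lower in 4 of 6 pairs, and of 30 monocyte and macrophage genes 2 were higher (Adgre1 0.55, Vcan 0.54) and 1 lower (C1qa -0.26) at that p. The part of cell numbers in the class II values was not tested.

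Among platelet genes, 4 of 14 measured were higher at an unadjusted p under 0.05 (the tubulin gene Tubb1 0.30, the coagulation factor gene F5 0.23, Mmrn1 0.33 and the integrin gene Itgb3 0.17) and 0 lower, beside 3.28% higher among all genes; 0 passed. The list median was 0.07 with all pairs and 0.18 without pair 5, and members ran down to -0.12 (Selp). The 5 defining platelet markers differed little, by 0.0309 ± 0.191 on average over the pairs (SD, n = 6), with 0 of 5 at that p and Gp5 at -0.06. Their mean level was 9.27 to 9.82 for IL-1RA and 9.04 to 10.01 for PBS, so that the groups overlap. Of 13 erythroid genes 2 were higher and 1 lower, and the mean of 3 erythroid markers was 10.56 to 12.34 for IL-1RA and 10.51 to 12.35 for PBS.

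Rasd1 belongs to a list of 19 measured glucocorticoid-responsive genes, which include targets with known glucocorticoid receptor sites. Among all genes 3.28% were higher and 6.68% lower at an unadjusted p under 0.05. Of the 19, 1 passed the test (Rasd1) and 5, with Rasd1 counted, were higher at that p, with 0 lower. The other 4 were Klf9, a Kruppel-like factor (10.70 ± 0.291 with serum of IL-1RA-treated rats against 10.28 ± 0.23 with serum of PBS-treated rats, log2 0.41, limma adjusted p = 0.177), Ddit4, an inhibitor of mTORC1 (0.49, adjusted p = 0.177), Fkbp5, a chaperone of steroid receptors (0.34, adjusted p = 0.237), and Errfi1, a feedback inhibitor of the EGF receptor (0.26, adjusted p = 0.4). Other members that respond to steroids in many cells lay on both sides of 0 without passing, with Tsc22d3 (GILZ) at -0.16, Per1 at 0.16, Sgk1 at 0.06 and Dusp1 at 0.10. The median over the list was 0.01 with all pairs and 0.07 without pair 5.

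Within the IL-1 family and its pathway, 23 genes were measured and 0 passed. Among ligands and their antagonist, Il1a averaged 4.57 ± 0.319 with serum of IL-1RA-treated rats and 4.54 ± 0.413 with serum of PBS-treated rats, and Il1rn, the gene of the cells' own IL-1RA, averaged 4.47 ± 0.243 for IL-1RA and 4.49 ± 0.213 for PBS (differences 0.03 and -0.01, limma adjusted p = 0.97 and 0.977). Among receptors, Il1r1 differed by -0.01, and the decoy receptor gene Il1r2 by 0.41 (adjusted p = 0.45), with single values from 4.44 to 11.63. Downstream, Pycard, the adaptor of inflammasomes, was at -0.32 and Traf6 at 0.21 (adjusted p = 0.3 and 0.406). Of 25 NF-kappaB genes 6 were lower (Nfkb2, Rela, Tnip1, Traf2, Icam1 and Gadd45b, -0.32 to -0.22) and 1 higher (Nfkbiz, 0.31) at an unadjusted p under 0.05. Of 31 cytokine and chemokine genes 3 were higher (Cxcl2, Ccl2 0.27 and Ptgs2 0.23) and 1 lower (Csf1 -0.27) at that p. Ptgs2 had a low signal, at 3.13 ± 0.527 for IL-1RA and 2.90 ± 0.402 for PBS, where array medians were 5.29 to 5.41. The shares among all genes at that p were 3.28% higher and 6.68% lower.

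**Figure D4:**
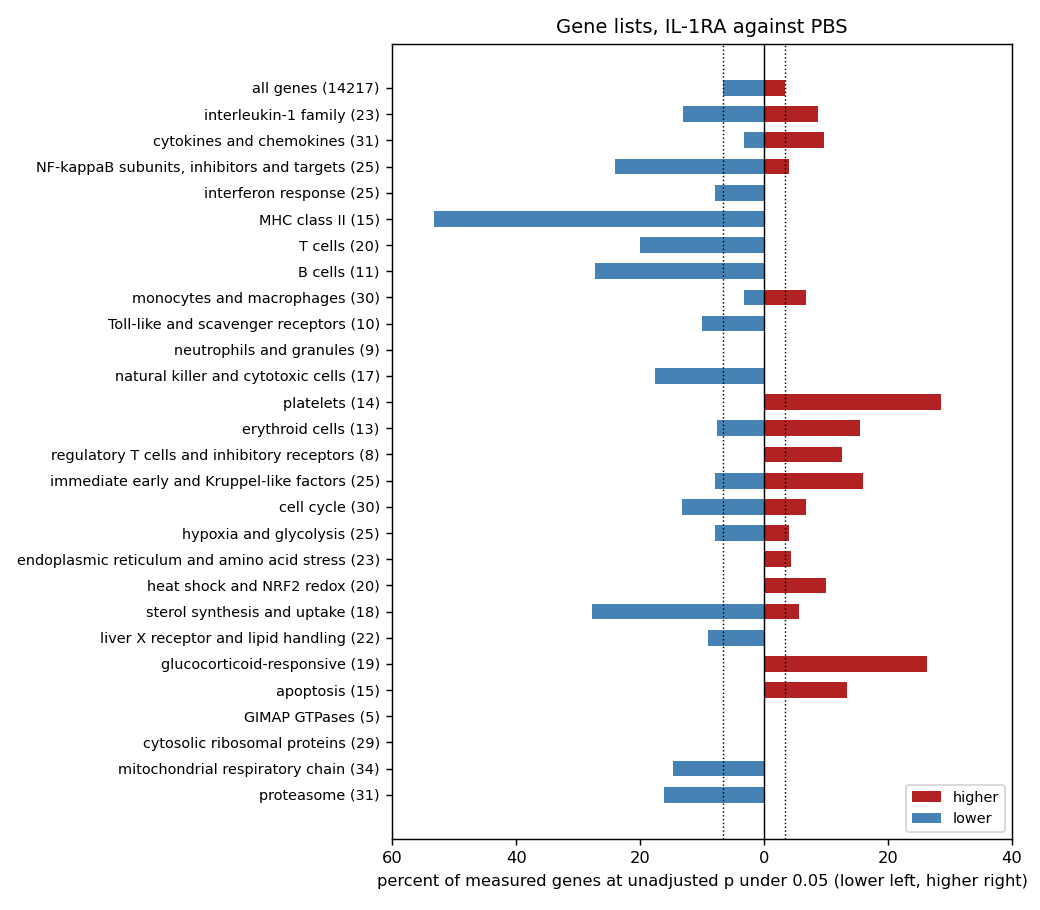
Percent of the measured genes of each list (number in brackets) that were higher (right, red) or lower (left, blue) with serum of IL-1RA-treated than of PBS-treated rats at an unadjusted p under 0.05; dotted lines are the shares of all 14217 genes, 3.28% and 6.68%. The MHC class II list reaches furthest on the lower side (8 of 15 genes), and the platelet (4 of 14) and glucocorticoid-responsive (5 of 19) lists furthest on the higher side.

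The remaining lists held no gene that passed, and among all genes 3.28% were higher and 6.68% lower at an unadjusted p under 0.05. Of 18 sterol synthesis and uptake genes 5 were lower (Dhcr7 -0.38, Mvd -0.30, Fdft1 -0.28, Fdps -0.27, Mvk -0.25) and 1 higher (Cyp51 0.23) at an unadjusted p under 0.05. Of 31 proteasome genes 5 were lower, among them Psmb7 (-0.40) and the interferon-inducible Psmb8, Psme1 and Psme2 (-0.28 each), and of 34 respiratory chain genes 5 were lower (-0.28 to -0.23). Of 25 immediate early and Kruppel-like factor genes 4 were higher (Fos 0.35, Nr4a3 0.35, Fosl2 0.34, Nr4a2 0.23) and 2 lower. Of the other Nr4a3 probe sets, both of lower signal, 1 differed by 0.86 (6.63 ± 0.375 for IL-1RA against 5.77 ± 0.492 for PBS, higher in 6 of 6 pairs, limma adjusted p = 0.0943) and 1 by 0.30 (adjusted p = 0.303). Of 30 cell cycle genes 2 were higher and 4 lower. Interferon response genes numbered 2 lower of 25, and the GIMAP, ribosomal protein and neutrophil lists had 0 in either direction at that p.

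The design asks whether treating the rats altered the response to DRlyp/lyp serum, so genes that day-60 DRlyp/lyp serum raised over autologous serum were followed in the day-40 comparison. The day-60 and autologous arrays are not among the day-40 arrays. The fit of all 53 arrays took its variances from every group, the day-40 arrays included, so its genes were not chosen wholly apart from them. Over all 53 arrays, 29 of 14217 genes (0.204%) were called higher and 1 (0.00703%) lower with day-60 DRlyp/lyp serum. In that comparison, however, the day-60 arrays and part of the autologous arrays lie in different array clusters, and against the 4 autologous arrays of their own cluster 1 gene (0.00703%), Pilra, was called. In the day-40 comparison 14 of the 29 were on the higher and 15 on the lower side with serum of IL-1RA-treated rats, with a median of log2 -0.01 and 0 passing. Among all genes 5328 of 14217 were on the higher side, with a median of -0.03. At an unadjusted p under 0.05, 3 of the 29 were higher and 1 lower, beside 3.28% and 6.68% of all genes. Pilra was at -0.12. Ccl2, a monocyte chemokine, averaged 4.52 ± 0.496 for IL-1RA against 4.25 ± 0.163 for PBS (log2 0.27, SE 0.122, limma adjusted p = 0.469). Akr1b8 (0.09), Nqo1 (-0.08) and Hmox1 (0.17), which are targets of the oxidative stress factor NRF2, had adjusted p of 0.609 to 0.906. Vcan, which encodes the matrix proteoglycan versican made by monocytes, averaged 6.16 ± 0.653 for IL-1RA against 5.62 ± 0.442 for PBS and was higher in 6 of 6 pairs (log2 0.54, SE 0.127, adjusted p = 0.177). The other Vcan probe sets differed by 0.65, 0.61, 0.44 and 0.02 (limma adjusted p = 0.0943, 0.194, 0.199 and 0.928). The same could not be done for IL-1 beta, since adding it to autologous serum gave 0 called genes (0%) by limma against 4 autologous arrays, with 1118 probe sets at an unadjusted p under 0.05, and 0 probe sets in the fit of all 53 arrays. When IL-1RA was added to day-60 DRlyp/lyp serum in the culture, Olfm1 averaged 5.52 ± 0.382 with IL-1RA and 5.51 ± 0.4 without, and Rasd1 averaged 8.24 ± 0.213 with and 8.24 ± 0.126 without (SD, n = 4 each).

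Of 2 measures of RNA integrity, 1 differed between the groups. The actin probe set at the 3′ end of the transcript exceeded the one at its 5′ end by log2 3.90 ± 0.339 with serum of IL-1RA-treated rats and 3.52 ± 0.275 with serum of PBS-treated rats (SD, n = 6 each), larger with IL-1RA in 6 of 6 pairs by 0.379 ± 0.19 on average (exact sign-flip permutation test, two-sided p = 0.03125, the smallest that 6 pairs allow). The same measure of Gapdh differed by 0.0193 ± 0.451 (exact p = 0.938), with single pairs from -0.462 (pair 2) to 0.794 (pair 5). Probe sets with no gene symbol were higher in 7.76% and lower in 2.33% at an unadjusted p under 0.05, those with 1 symbol in 4.62% and 5.74%. When the actin difference was added to the fit, 119 probe sets were called, and Olfm1 (log2 0.87, limma adjusted p = 0.266) and Rasd1 (0.80, adjusted p = 0.118) no longer passed; the part of RNA quality in the result was not tested further.

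The number of calls turned on pair 5. Its differences over all probe sets correlated with those of the other pairs at -0.23 to 0.12. Pair 1 was similar in this (-0.23 to 0.18), as were pair 3 (-0.06 to 0.19) and pair 6 (-0.07 to 0.26), whereas pairs 2 and 4 reached 0.58 with each other. Pair 5 had the largest actin difference, 0.743, and also the largest Gapdh difference, 0.794, with the other pairs at -0.462 to 0.218. Without it 186 probe sets were called (0.599%), 170 higher and 16 lower, among them all 3 calls made with 6 pairs, and 42 named genes were higher and 13 lower. These included Ciita (log2 -0.65, limma adjusted p = 0.025), RT1-DMb (-0.54, 0.0304), RT1-Ba (-0.25, 0.0376) and Cd74 (-0.26, 0.0377) on the lower side. On the higher side they included Ccnd2 (1.07, 0.0315), Cxcl2 (0.61, 0.0445), Klf9 (0.48, 0.0384), the cAMP-responsive repressor gene Crem (0.46, 0.0159), Rgs1, a regulator of G protein signalling (0.46, 0.0159), the nuclear receptor gene Rora (0.93, 0.0304) and the platelet genes Tubb1 (0.39, 0.0372) and Clec1b (0.38, 0.033), each p being limma's adjusted p. In pair 5 itself 28 of these 55 genes differed in the opposite direction, Crem by -0.04, Rgs1 by -0.43, Clec1b by -0.54 and RT1-Ba by 0.10. Leaving out pair 1 left 1 probe set called, and leaving out pair 2, 3, 4 or 6 left 0.

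**Figure D5:**
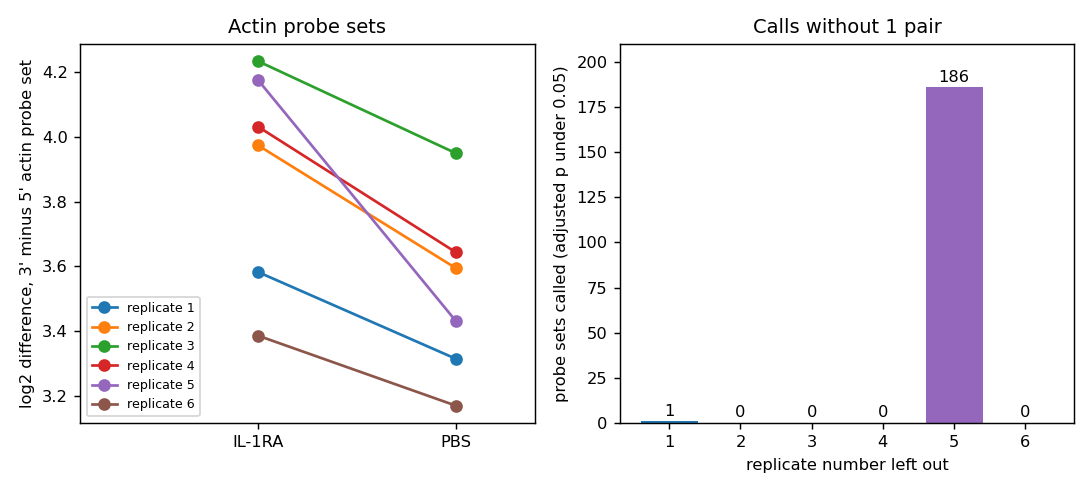
Left, log2 difference of actin signal, 3′ minus 5′ probe set, with serum of IL-1RA-treated and PBS-treated rats, lines joining pairs; all 6 lines lie higher with IL-1RA and that of replicate 5 is steepest (0.743). Right, number of probe sets called at adjusted p under 0.05 when the pair on the x axis is left out, which is 186 without pair 5 and 0 or 1 without any other.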

How the data were processed

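The deposited values are log2 expression per probe set of Affymetrix rat arrays, made by the authors with RMA (background correction, quantile normalization and summarization), and Partek 6.2 is also named, per the submitters' processing notes. Of 31099 probe sets, 57 controls were left out. Platform annotation gave 20826 probe sets 1 symbol, 436 several and 9780 none. For each of 14217 genes, the probe set of highest mean signal across 53 arrays was used. The main fit was limma 3.58.1 (R 4.3.3; variance trend) on the 12 arrays with the replicate number as a fixed block and p-values adjusted over 31042 probe sets; it was tested on simulated data. The labels do not explain the numbers. They were taken as pairs because deviations from the group means correlated at 0.401 to 0.739 between arrays of the same number, above 0.1 in every pair. Arrays of different number correlated at -0.568 to 0.617, and 10 of the 12 arrays correlated best with their own number. In pairs 2 and 6 the highest correlation with another number, 0.617, exceeded that with their own (0.401 and 0.555). The number of arrays limits the precision. Named genes are all called genes, then those with the smallest p up to 15 in each direction, up to 4 called members of each gene list (or 2 with the smallest p where none is called) and 10 genes given always; further list members at an unadjusted p under 0.05 and genes called without pair 5 were named after their values were seen. Members and lists were chosen with earlier results of these data known. Figures were drawn with matplotlib 3.10.9 (Python 3.11.15). Alternatives were other blocks, variance models, scalings, filters, probe set rules and thresholds, an actin covariate and each pair left out.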

Additional observations from a re-analysis of the deposited data

Results flagged for a closer look

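In 5 of 82 groups of 6 arrays, 1 array lay far from the other 5, where chance alone gives about 1 in 20. Il1rn was high in replicate 1 of both groups, at 4.93 with serum of IL-1RA-treated rats (others 4.27 to 4.50) and 4.90 with serum of PBS-treated rats (others 4.33 to 4.47). Fcmr was low in replicate 5 with serum of IL-1RA-treated rats, at 11.2 (others 11.9 to 12.2). With serum of PBS-treated rats, Dock4 was low in replicate 1 at 3.94 (others 4.44 to 4.57) and RT1-DMb was low in replicate 3 at 9.41 (others 9.88 to 10.1).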

How the results depend on the processing

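The count of 3 called probe sets remained at 3 with robust variances, a second quantile normalization, median centring and a filter on dim probe sets, and was 2 without the variance trend and with the mean of a gene's probe sets. It was 0 without the replicate block, 1 with the pairing as a random block, 0 in the fit of all 53 arrays, 18 with array weights, 119 with the actin covariate, 14 with 1 probe set per gene chosen on the 12 arrays, 9 with the choice on all 53 (added after seeing the data), 0 at adjusted p under 0.01 and 172 at a looser threshold (adjusted p under 0.2 and an absolute log2 difference of 0.5 or more). Leaving out 1 pair gave 0 to 186. For Olfm1 the call was lost without pair 2, 3, 4 or 6 (adjusted p up to 0.0798) and for Rasd1 without pair 1, 2, 3, 4 or 6 (up to 0.148), by the same limma fit; Rasd1 also missed it with the random block (0.0613). The Gapdh difference ranged from -0.136 to 0.116 when a pair was left out, and that of actin from 0.307 to 0.412. Olfm1 and Rasd1 kept a positive difference in 19 of 19 settings, which draw on the same arrays, and passed in 12 and 10 of them. S100a9 and Nqo1, which passed in 0, also kept their sign in 19 of 19, so a kept sign says little. For IL-1 beta response genes no setting gave a gene, so their alternatives were not run. The cause of these changes was not tested.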
